A study of Homo sapiens with 4 samples.

Results

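The BCL2 family decides at the outer mitochondrial membrane whether a cell starts apoptosis. 10 of its genes were measured by RNA-seq in the human osteosarcoma line 143B with and without FTO knockdown: BCL2L1, BCL2L2, MCL1, BAX, BAK1, BID, BAD, BCL2L11, BBC3 and PMAIP1. They were taken by gene symbol, and all 10 were found among the 11972 protein-coding genes of the authors' table. The groups were cells stably carrying a short hairpin RNA plasmid against FTO (shFTO, 2 libraries) and cells carrying a control plasmid (shCtrl, 2 libraries), both grown with puromycin. FTO encodes a demethylase of N6-methyladenosine (m6A) in RNA. All cells come from the same line, and the number of hairpins or clones behind a group is not stated. The labels do not say whether the replicates were grown separately. All p-values therefore reflect library-to-library spread alone, which may be technical.

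Members of the family hold each other in check through direct binding. The anti-apoptotic proteins BCL-XL (from BCL2L1), BCL-W (BCL2L2) and MCL-1 (MCL1) bind and restrain the effectors BAX and BAK (BAK1), which otherwise form pores that release cytochrome c. BH3-only proteins, here BID, BAD, BIM (BCL2L11), PUMA (BBC3) and NOXA (PMAIP1), sense damage or loss of growth signals and either occupy the anti-apoptotic proteins or activate the effectors. BAD binds mainly BCL-XL, BCL-W and BCL2, whereas NOXA binds mainly MCL-1 and promotes its degradation, and MCL-1 itself is short-lived.

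The values are FPKM, fragment counts scaled by transcript length and library size, which can be compared between genes of different length. They summed to between 200555 and 212531 per library, and read depth is unknown. On the log2 scale the shFTO libraries correlated with each other across genes at r = 0.964 and the shCtrl libraries at r = 0.983. FTO itself was at 0.268 and 0.242 FPKM in the shFTO libraries, against 1.14 and 0.665 FPKM in the shCtrl libraries, lower in both knockdown libraries. It reached 1 FPKM only in shCtrl replicate 1, too few libraries for the test used below. The precision of values this low is unknown. Of 12 bone and mesenchymal markers, 8 were listed, and their summed level was 422 and 331 FPKM in shFTO, against 357 and 376 FPKM in shCtrl. VIM and SPARC made up most of this, while the osteoblast regulator RUNX2 was between 0.431 and 0.577 FPKM. Of 6 epithelial markers, 3 were listed (KRT8, KRT18 and EPCAM). These summed to 150 and 124 FPKM in shFTO, against 175 and 192 FPKM in shCtrl, and their part in the results was not tested. Levels of the blood cell and endothelial markers were not analysed here. In such bulk samples fewer cells of a kind and less RNA per cell cannot be told apart.

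FTO acts on m6A, which is often found at the sequence GGACT in the DNA-letter spelling of a transcript, so this motif was counted in 1 coding transcript of each member (GENCODE release 29). A count of motifs is a description and does not show that a site is methylated. BCL2L1 held 6 in 2610 bases and BCL2L2 held 5 in 3605 bases. MCL1 held 7 in 3932 bases and BBC3 held 7 in 1838 bases, the highest density of the members at 3.81 per kilobase. The density was above the median of 11861 transcripts of the table's genes (0.93 per kilobase) for 10 of the 10 members, and above their upper quartile (1.4 per kilobase) for 8, all but BCL2L2 (1.39) and PMAIP1 (1.03). Base composition, which can set such counts, was not tested. The 2 sites inside the coding sequence of BCL2L1 are shown because BCL2L1 was lower in both shFTO libraries with little spread within a group. They lie in exon 2 of 3, on the minus strand of chromosome 20 at chr20:31722106-31722126 and chr20:31722088-31722108 (GRCh38), with the motif in capitals and 8 bases to either side:
BCL2L1 site 1: agagaacaGGACTgaggcccc
BCL2L1 site 2: cccagaagGGACTgaatcgga

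Promoter sequence was at hand for 8 of the 10 members (RefSeq, GRCh38.p14), and the 250 bases before a start were searched on both strands. The motifs were the GC box (GGGCGG), the E-box (CACGTG), AP-1 (TGANTCA), CRE (TGACGTCA), the CCAAT box (CCAAT) and an ETS core (GGAAGT). The windows of BCL2L1 and BAX are shown as a pair from the opposing sides of the family, an anti-apoptotic gene with none of these letters and an effector gene with 7 matches, as many as PMAIP1. A further BCL2L1 window at chr20:31723964-31724213 (minus strand) also held no match and is not shown. A window of the BH3-only gene BID at chr22:17774666-17774915 (minus strand) held no match either. For the anti-apoptotic BCL2L2 and MCL1 no promoter sequence was at hand. The BCL2L1 window shown lies at chr20:31722869-31723118 (minus strand) and the BAX window at chr19:48954625-48954874 (plus strand), with matches in capitals:
BCL2L1 promoter: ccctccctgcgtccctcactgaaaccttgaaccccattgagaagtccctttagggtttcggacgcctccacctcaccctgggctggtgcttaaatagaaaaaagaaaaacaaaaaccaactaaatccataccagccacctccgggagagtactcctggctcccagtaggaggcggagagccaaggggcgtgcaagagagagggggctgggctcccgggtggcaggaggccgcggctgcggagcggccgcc
BAX promoter: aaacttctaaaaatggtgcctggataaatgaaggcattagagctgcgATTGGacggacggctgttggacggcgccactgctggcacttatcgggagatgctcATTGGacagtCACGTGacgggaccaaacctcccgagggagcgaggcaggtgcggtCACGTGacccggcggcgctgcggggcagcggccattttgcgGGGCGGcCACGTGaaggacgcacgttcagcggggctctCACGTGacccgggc
BAX held the E-box at 4 places, the GC box at 1 and the CCAAT box at 2. Of 13748 windows of the table's genes, 8.4% held an E-box, 64.6% a GC box and 33.1% a CCAAT box. The GC box was present 4 times in PMAIP1, 3 times in BCL2L11, 2 times in BAK1 and 0 to 4 times in the 5 windows of BID. It was present 1 time in each window of BAD and 0 times in BBC3. A match is not a binding site, and a window without these letters shows nothing about the factors.

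In control cells MCL1 was the most abundant member, followed by BCL2L1, PMAIP1, BAX, BCL2L2, BAK1, BID, BAD, BCL2L11 and BBC3. The shCtrl means ran from 114 FPKM for MCL1 and 34.1 FPKM for BCL2L1 down to 0.502 FPKM for BBC3. PMAIP1 and BAX, BAX and BCL2L2, and BID and BAD had overlapping shCtrl values, so their order is not set by these libraries. In the knockdown cells BCL2L1 moved from the second to the fifth place in both libraries, although its shFTO values overlapped those of BAK1, so the order of these 2 genes is not set. BCL2L2 moved from place 4 or 5 to place 9 or 10, where its values overlapped those of BCL2L11 and BBC3.

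**Figure D1:**
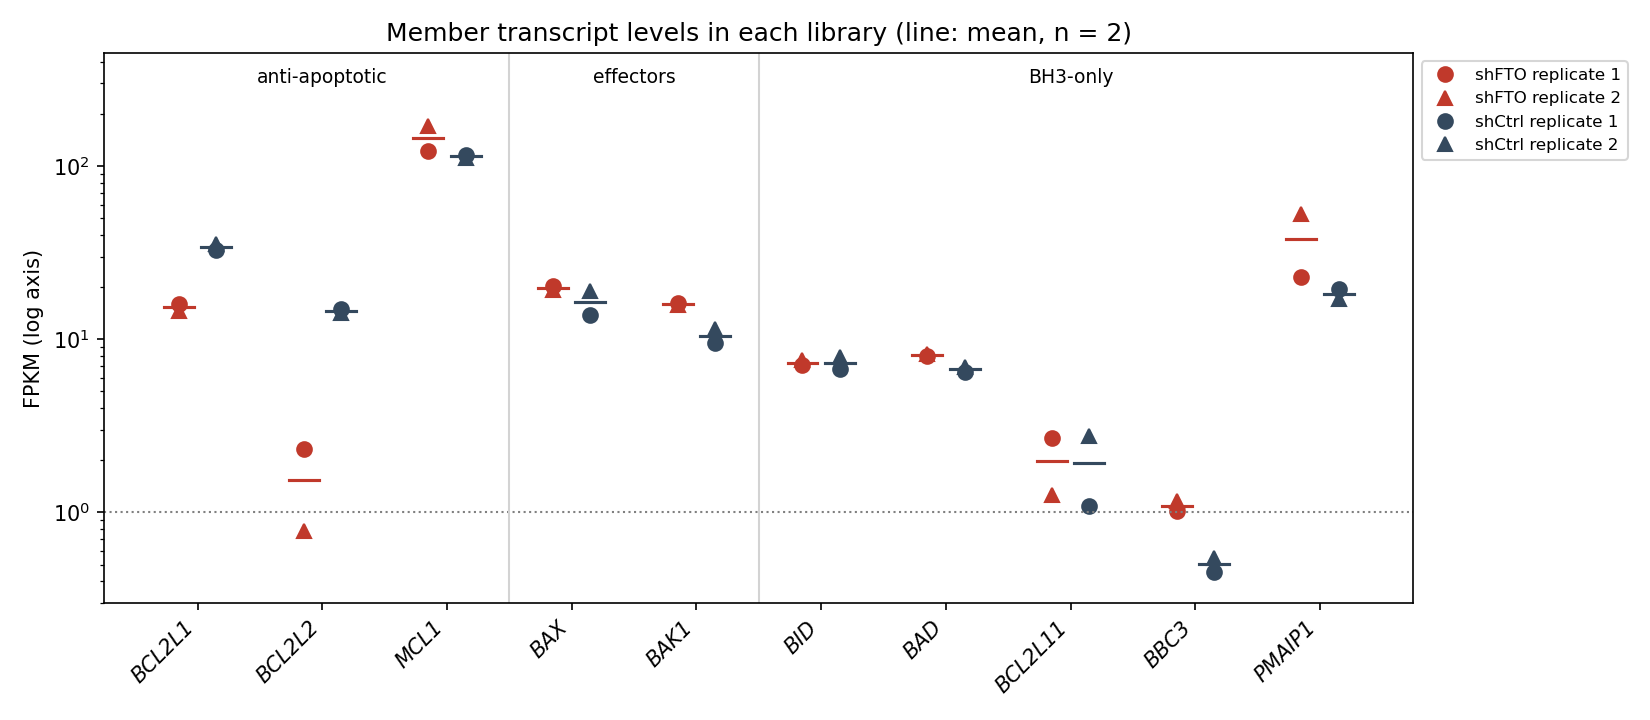
FPKM of each member on a log axis, with shFTO in red and shCtrl in dark grey, circles for replicate 1, triangles for replicate 2 and a line at the mean of 2 libraries. The dotted line marks 1 FPKM. BCL2L1 and BCL2L2 lie lower in both shFTO libraries, while BID and BCL2L11 overlap between the groups.

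The comparison of shFTO with shCtrl asks which members differ when FTO is lowered. Of the 10 members, 2 anti-apoptotic genes were lower in both shFTO libraries (BCL2L1 and BCL2L2), 6 genes were higher in both (MCL1, BAX, BAK1, BAD, BBC3 and PMAIP1), and BID and BCL2L11 overlapped. Over all tested genes the groups did not overlap for 42.6%, with shFTO higher for 24.6% and lower for 18.1%. None of the 10 members passed the threshold, an adjusted p under 0.05 in limma over the 10873 genes that reached 1 FPKM in 2 or more libraries. Over all tested genes 0.0276% passed. At an unadjusted limma p under 0.05 there were 4 members, 2 higher (BAK1 and BBC3) and 2 lower (BCL2L1 and BCL2L2), against 7.11% of all tested genes higher and 3.74% lower. An exact two-sided permutation test of 1 gene cannot go below 0.333 with 2 libraries against 2. BBC3 and BCL2L2 reached 1 FPKM in both libraries only in the group where they were higher, so their passage through the filter is tied to their difference.

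BCL2L2 encodes BCL-W, a pro-survival protein that binds BAX and BIM. Its level was 2.32 and 0.782 FPKM in the shFTO libraries, against 14.9 and 14.2 FPKM in the shCtrl libraries. Each shFTO library lay far below each shCtrl library, and the shFTO pair differed 2.96-fold within itself against 1.04-fold for the shCtrl pair. In shCtrl the gene ranked at percentiles 77.5 and 76.5 of all listed genes and in shFTO at 25.8 and 6.57. The means were 1.55 ± 1.08 FPKM and 14.5 ± 0.452 FPKM (SD, n = 2 each), 89.4% lower in shFTO. Log2(FPKM + 1), which understates changes of low genes, differed by -2.68 (SE 0.30, 95% confidence interval -3.43 to -1.93, limma adjusted p = 0.0964). It was the seventh lowest difference of all tested genes (rank 7 of 10873) and did not pass the correction. Without shFTO replicate 1 the limma adjusted p was 0.000251 (difference -3.12) and without shFTO replicate 2 it was 0.00188 (-2.23), with the lone shFTO library assumed to vary like the shCtrl pair. Without shCtrl replicate 1 or 2 it was 0.487 in both fits.

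The gene lies on chromosome 14, 23767999 to 23780968 (plus strand, hg19), and shares sequence with BCL2L2-PABPN1, a read-through gene on the same strand at 23776044 to 23794578. Reads could be divided between them, which makes the value of BCL2L2 uncertain. BCL2L2-PABPN1 was at 4.84 and 4.27 FPKM in shFTO, against 3.89 and 4.30 FPKM in shCtrl, and the groups overlapped (difference 0.12, limma adjusted p = 0.814). Summed, BCL2L2 and the read-through gene were at 7.15 and 5.05 FPKM in shFTO, against 18.8 and 18.5 FPKM in shCtrl. The summed level was lower in both shFTO libraries, and its difference was -1.48 (SE 0.19, limma adjusted p = 0.112). PABPN1, which encodes a nuclear poly(A)-binding protein and follows next on the strand, was at 49.9 and 48.9 FPKM in shFTO, against 36.8 and 51.3 FPKM in shCtrl, also overlapping. On the opposite strand PPP1R3E and HOMEZ overlap BCL2L2, and neither was lower in both shFTO libraries. SLC22A17, a nearby transporter gene, was at 2.39 and 1.87 FPKM in shFTO, against 1.57 and 1.77 FPKM in shCtrl, slightly higher in both shFTO libraries (difference 0.22, limma adjusted p = 0.651).

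**Figure D2:**
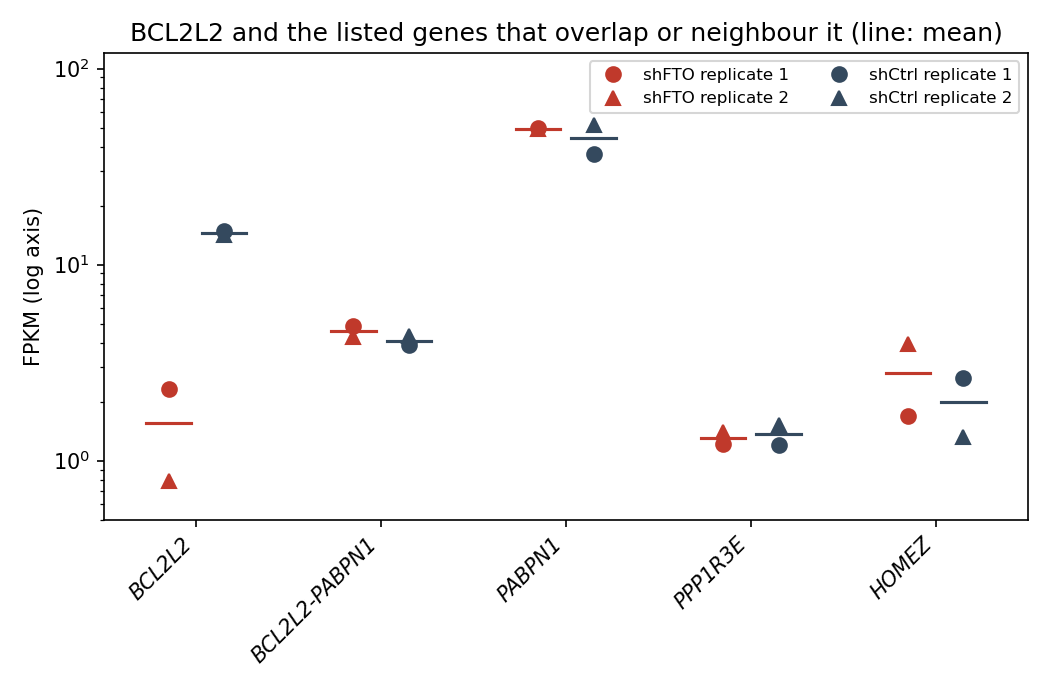
FPKM on a log axis of BCL2L2, of the 3 listed genes that overlap it and of PABPN1, with shFTO in red, shCtrl in dark grey, 1 point per library and a line at the mean of 2. BCL2L2 is at 2.32 and 0.782 FPKM in shFTO and above 14 FPKM in shCtrl, while the groups overlap for the other 4 genes plotted. SLC22A17 is not plotted.

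The tested genes with the profile most like that of BCL2L2 over the 4 libraries were ANKRD1, a target of the coactivator YAP, NPPB, which encodes a natriuretic peptide precursor, and TOMM6, a subunit of the mitochondrial import translocase. Likeness was the Euclidean distance between log2(FPKM + 1) profiles centred on their own mean, at 0.452, 0.828 and 1.02. NPPB was at 2.69 and 0.146 FPKM in shFTO, against 16.0 and 20.5 FPKM in shCtrl. It reached 1 FPKM in both libraries only in shCtrl, so its passage through the filter is tied to its difference. ANKRD1 was at 22.0 and 9.24 FPKM in shFTO, against 136 and 122 FPKM in shCtrl. These 2 genes shared with BCL2L2 a shFTO replicate 2 that was lower than replicate 1, whereas TOMM6, at 24.2 and 33.0 FPKM in shFTO, against 194 and 254 FPKM in shCtrl, was lower in replicate 1. TOMM6 was among the 3 genes that passed the threshold (limma adjusted p = 0.0433).

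BCL2L1 encodes BCL-XL and, by alternative splicing, the shorter pro-apoptotic BCL-XS, which gene values cannot separate. It was at 16.1 and 14.6 FPKM in the shFTO libraries, against 32.7 and 35.6 FPKM in the shCtrl libraries. The groups lay well apart, and the libraries within each group differed less than those of the median gene did (1.20-fold in shFTO and 1.14-fold in shCtrl). The means were 15.4 ± 1.02 FPKM and 34.1 ± 2.07 FPKM (SD, n = 2 each), 55.0% lower in shFTO. In limma the log2(FPKM + 1) values differed by -1.10 (SE 0.14, 95% confidence interval -1.45 to -0.75, limma adjusted p = 0.113) and did not pass. It ranked 27 of 10873 by p-value. With 1 library left out in turn, the difference stayed between -1.17 and -1.04. The gene lies on chromosome 20, 30252255 to 30311792 (minus strand, hg19), and overlaps no other listed gene. In the authors' deposited table BCL2L1 had p = 0.00622 and q = 0.503, and BCL2L2 had p = 0.0270 and q = 0.516.

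MCL1, whose protein restrains BAK and BIM and turns over quickly, did not share this direction. Its level was 122 and 170 FPKM in shFTO, against 116 and 112 FPKM in shCtrl, just above the controls in shFTO replicate 1 and further above in replicate 2. The difference was 0.34 (SE 0.19, 95% confidence interval -0.12 to 0.80, limma adjusted p = 0.564). Leaving out shFTO replicate 2 gave 0.10 and leaving out replicate 1 gave 0.57, so its size rests on replicate 2. MCL1 lies on chromosome 1, 150547027 to 150552214 (minus strand, hg19).

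With 2 members lower and the most abundant one not, the makeup of the anti-apoptotic transcripts differed more than their sum. Summed FPKM of the 3 genes was 141 and 185 in shFTO and 163 and 162 in shCtrl, so the shCtrl values fell between the shFTO values. MCL1 supplied 86.9% and 91.7% of that sum in shFTO and 70.9% and 69.1% in shCtrl. The share of BCL2L1 was 11.4% and 7.91% in shFTO and 20.01% and 22.0% in shCtrl, and that of BCL2L2 was 1.65% and 0.423% against 9.10% and 8.81%. No test was made on sums or shares, since the members were chosen by hand.

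**Figure D3:**
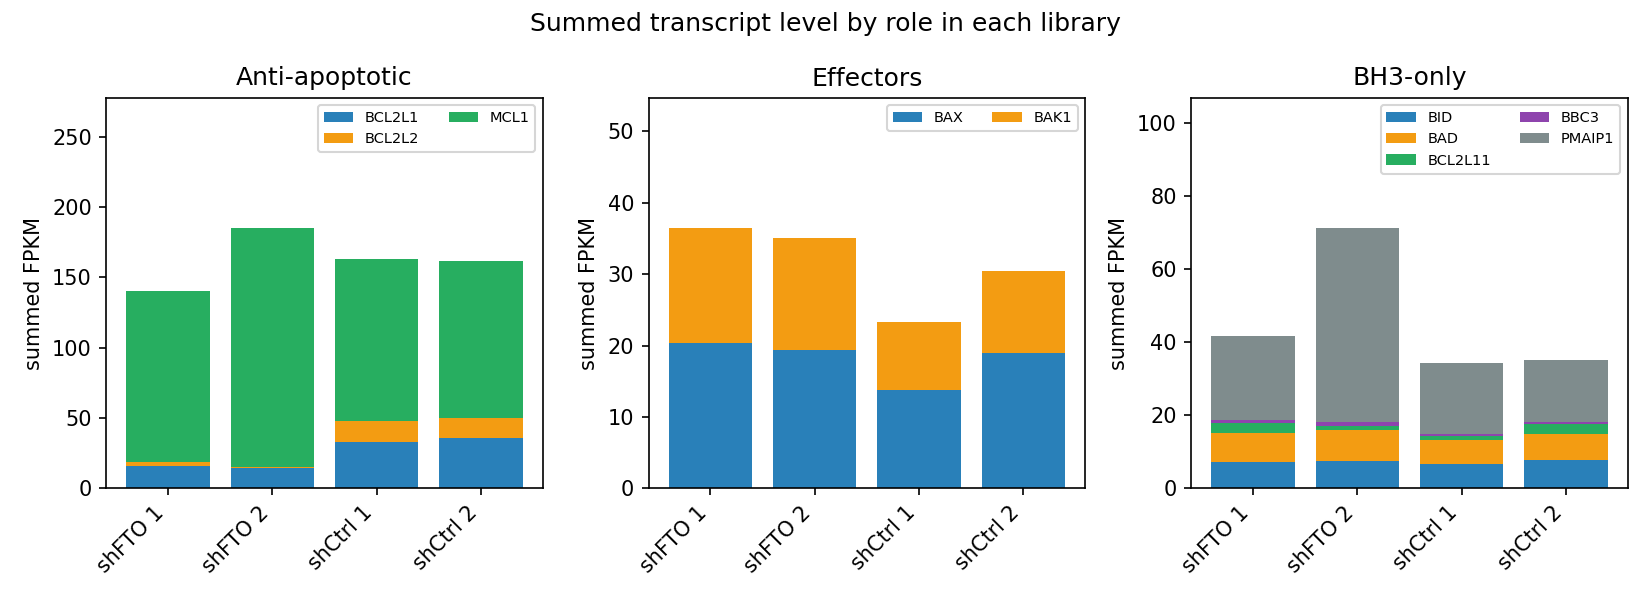
Summed FPKM of the anti-apoptotic, effector and BH3-only members in each library, stacked by gene, on linear axes that start at 0 and differ between panels. MCL1 takes a larger share of the anti-apoptotic sum in both shFTO libraries, and PMAIP1 accounts for the tall BH3-only bar of shFTO replicate 2.

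Both effector members were higher in the 2 shFTO libraries than in the 2 shCtrl libraries. BAK1, whose protein sits in the outer mitochondrial membrane, was at 16.2 and 15.7 FPKM in shFTO, against 9.49 and 11.5 FPKM in shCtrl. The shFTO libraries differed by 1.03-fold, and the nearest shCtrl library lay well below them. Its mean was 51.9% higher in shFTO (16.0 ± 0.298 against 10.5 ± 1.43 FPKM, SD, n = 2 each), a difference of 0.57 (SE 0.16, 95% confidence interval 0.18 to 0.95, limma adjusted p = 0.322) that did not pass. BAK1 lies on chromosome 6, 33540324 to 33548070 (minus strand, hg19).

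BAX, a cytosolic protein until it is activated, was at 20.3 and 19.4 FPKM in shFTO, against 13.8 and 18.9 FPKM in shCtrl. The groups were separated by a narrow margin, since shCtrl replicate 2 came close to shFTO replicate 2. The difference was 0.28 (SE 0.19, 95% confidence interval -0.18 to 0.74, limma adjusted p = 0.625) and was 0.07 without shCtrl replicate 1. BAX lies on chromosome 19, 49458072 to 49465055 (plus strand, hg19).

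Set against the effectors within each library, the BCL2L1 and BCL2L2 transcripts together were 0.504 and 0.439 times the sum of BAX and BAK1 in shFTO, and 2.04 and 1.64 times that sum in shCtrl. The ratio was thus below 1 in both shFTO libraries and above 1 in both shCtrl libraries, but it depends on the genes summed. It leaves out MCL1, and also BCL2A1, BCL2 and BOK, further family genes that are not among the members. BCL2A1, an anti-apoptotic gene, was at 6.03 and 14.5 FPKM in shFTO, against 3.28 and 4.34 FPKM in shCtrl. BCL2 was at 1.45 and 2.21 FPKM in shFTO, against 1.15 and 1.41 FPKM in shCtrl. Both were higher in both shFTO libraries. BOK was at 23.1 and 16.0 FPKM in shFTO, against 21.2 and 25.1 FPKM in shCtrl, overlapping. With MCL1 included the ratio was 3.86 and 5.27 in shFTO and 7.03 and 5.31 in shCtrl. There shFTO replicate 2 and shCtrl replicate 2 were nearly equal. These ratios are of transcripts and do not measure the proteins.

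Among the BH3-only genes PMAIP1 was the most abundant, and it was also the member whose shFTO libraries differed most after BCL2L2. Its transcript, which encodes NOXA, was at 22.8 and 52.9 FPKM in shFTO, against 19.4 and 17.0 FPKM in shCtrl. Replicate 2 of shFTO stood 2.32-fold above replicate 1, which lay only slightly above the controls. The difference was 0.90 (SE 0.37, 95% confidence interval -0.02 to 1.83, limma adjusted p = 0.466). Without shFTO replicate 2 it was 0.32, and without shFTO replicate 1 it was 1.49, so 1 library decides the value. Relative to MCL1, the partner that NOXA binds, PMAIP1 was at 0.187 and 0.312 in shFTO and 0.168 and 0.152 in shCtrl. PMAIP1 lies on chromosome 18, 57567180 to 57571538 (plus strand, hg19).

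BBC3, whose product PUMA binds all the anti-apoptotic proteins, was the least abundant member in shCtrl, at 0.455 and 0.548 FPKM, and was at 1.02 and 1.16 FPKM in shFTO. Both shFTO libraries were above both shCtrl libraries, with a ratio of means of 2.17. The difference on the log2(FPKM + 1) scale was 0.48 (SE 0.13, limma adjusted p = 0.311), against 0.99 when the pseudocount was 0.1. At levels this low few fragments may lie behind a value. BBC3 lies on chromosome 19, 47724079 to 47736023 (minus strand, hg19).

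BAD, which is switched off by phosphorylation downstream of growth factors, was at 8.01 and 8.24 FPKM in shFTO, against 6.50 and 6.94 FPKM in shCtrl. Its values were tight in both groups, which did not overlap, and the mean was 20.9% higher in shFTO. The difference was 0.24 (SE 0.15, 95% confidence interval -0.13 to 0.61, limma adjusted p = 0.604). BAD (chromosome 11, 64037302 to 64052176, minus strand, hg19) overlaps GPR137 on the other strand (3.05 and 3.40 FPKM in shFTO, 2.77 and 3.44 FPKM in shCtrl, overlapping), and the sources used here do not say if reads were assigned by strand. In the authors' deposited table BAD had p = 0.0331 and q = 0.530.

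BID, which links death receptors to mitochondria once cut by caspase-8, was at 7.06 and 7.60 FPKM in shFTO, against 6.74 and 7.86 FPKM in shCtrl. The shFTO values lay between the shCtrl values, with a difference of 0.01 (95% confidence interval -0.39 to 0.40, limma adjusted p = 0.991). BCL2L11, the gene of BIM, was at 2.69 and 1.26 FPKM in shFTO, against 1.09 and 2.77 FPKM in shCtrl. Its libraries differed by 2.13-fold within shFTO and 2.55-fold within shCtrl, more than the groups did, and the interval of its difference ran from -0.83 to 0.92. BID lies on chromosome 22, 18216904 to 18257536 (minus strand, hg19), and BCL2L11 on chromosome 2, 111876955 to 111926024 (plus strand, hg19).

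**Figure D4:**
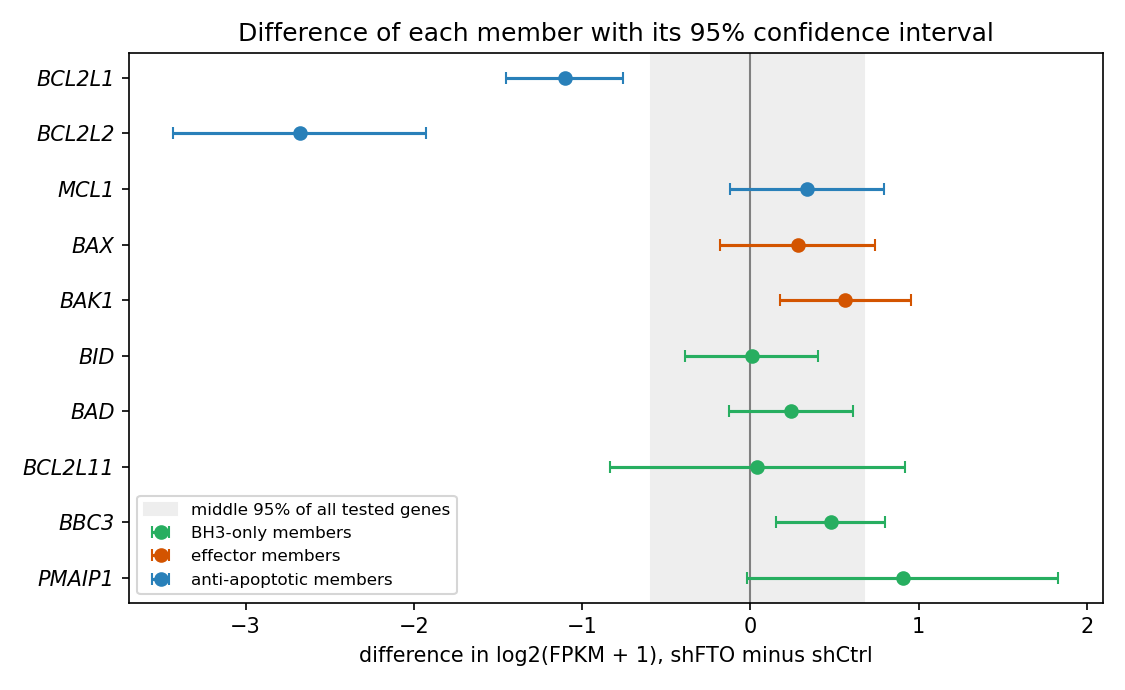
Difference of each member in log2(FPKM + 1), shFTO minus shCtrl, with its 95% confidence interval from limma, coloured by role. The grey band holds the middle 95% of the differences of all tested genes. BCL2L1, BCL2L2 and PMAIP1 have estimates outside the band, and the interval of PMAIP1 includes 0.

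The rest of the family was then listed beside the members. Of 17 further family genes 12 were tested, of which 0 passed, 7 were higher in both shFTO libraries, 1 was lower in both and 4 overlapped. Of all tested genes 24.6% were higher in both and 18.1% lower. The median difference was 0.22 against 0.02 over all tested genes. BCL2A1, an anti-apoptotic gene induced by NF-kB, was at 6.03 and 14.5 FPKM in shFTO, against 3.28 and 4.34 FPKM in shCtrl. Its shFTO replicate 2 was the highest library, as for PMAIP1 and MCL1, and its difference was 1.13 (SE 0.38, limma adjusted p = 0.397). BNIP3L, which marks mitochondria for autophagy, was at 22.0 and 24.4 FPKM in shFTO, against 17.9 and 16.6 FPKM in shCtrl. BECN1, an autophagy protein that carries a BH3 motif, was at 5.29 and 4.20 FPKM in shFTO, against 7.69 and 6.35 FPKM in shCtrl, the gene that was lower in both. BNIP1 overlapped between the groups. BMF, a BH3-only gene chosen after its values were seen, was at 1.39 and 2.998 FPKM in shFTO, against 0.593 and 1.09 FPKM in shCtrl. It reached 1 FPKM in both libraries only in shFTO, so its place among the tested genes is tied to its difference. BCL2 itself, also chosen after its values were seen, was low in all libraries, at 1.45 and 2.21 FPKM in shFTO, against 1.15 and 1.41 FPKM in shCtrl.

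Below the family, cytochrome c released from mitochondria assembles the apoptosome on APAF1 and activates caspases. Of 17 tested genes of this step 0 passed, 4 were higher in both shFTO libraries, 6 were lower and 7 overlapped. The shares over all tested genes were 24.6% higher and 18.1% lower. The median difference of this step was -0.12. APAF1 was at 6.20 and 7.10 FPKM in shFTO, against 4.31 and 3.13 FPKM in shCtrl (difference 0.71, SE 0.19, limma adjusted p = 0.306). On the lower side, BIRC5, which encodes survivin, was at 5.69 and 5.09 FPKM in shFTO, against 7.93 and 7.90 FPKM in shCtrl, and the channel gene VDAC1 was at 81.7 and 89.2 FPKM in shFTO, against 105 and 108 FPKM in shCtrl. None of APAF1, BIRC5 and VDAC1 passed the correction.

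Inducers of BH3-only genes had 11 tested members, of which 0 passed, 5 were higher in both shFTO libraries, 2 lower and 4 overlapping (median 0.02). Some of those higher reached 1 FPKM in both libraries only in shFTO, so their place in this count is tied to their difference. The shares over all tested genes were 24.6% higher and 18.1% lower. FOXO3, a factor that activates BCL2L11 and BBC3 when growth signals are lost, was at 2.41 and 4.51 FPKM in shFTO, against 6.68 and 5.79 FPKM in shCtrl. JUN was at 84.5 and 89.6 FPKM in shFTO, against 60.3 and 64.0 FPKM in shCtrl. CHAC1, counted in this list although it is a target of ATF4, was at 3.23 and 3.56 FPKM in shFTO, against 2.35 and 1.95 FPKM in shCtrl. DDIT3, which encodes the stress factor CHOP, overlapped between the groups.

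Regulators of the member proteins had 17 tested genes, of which 0 passed, 3 were higher in both shFTO libraries, 5 lower and 9 overlapping (median 0.01). The shares over all tested genes were 24.6% higher and 18.1% lower. DYNLL2, a dynein light chain that binds BMF, was at 7.51 and 9.27 FPKM in shFTO, against 14.4 and 13.8 FPKM in shCtrl (difference -0.69, SE 0.16, limma adjusted p = 0.280). PIM1, a kinase that phosphorylates BAD, was at 4.64 and 4.17 FPKM in shFTO, against 6.51 and 8.15 FPKM in shCtrl. GSK3B, which phosphorylates MCL-1, overlapped.

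**Figure D5:**
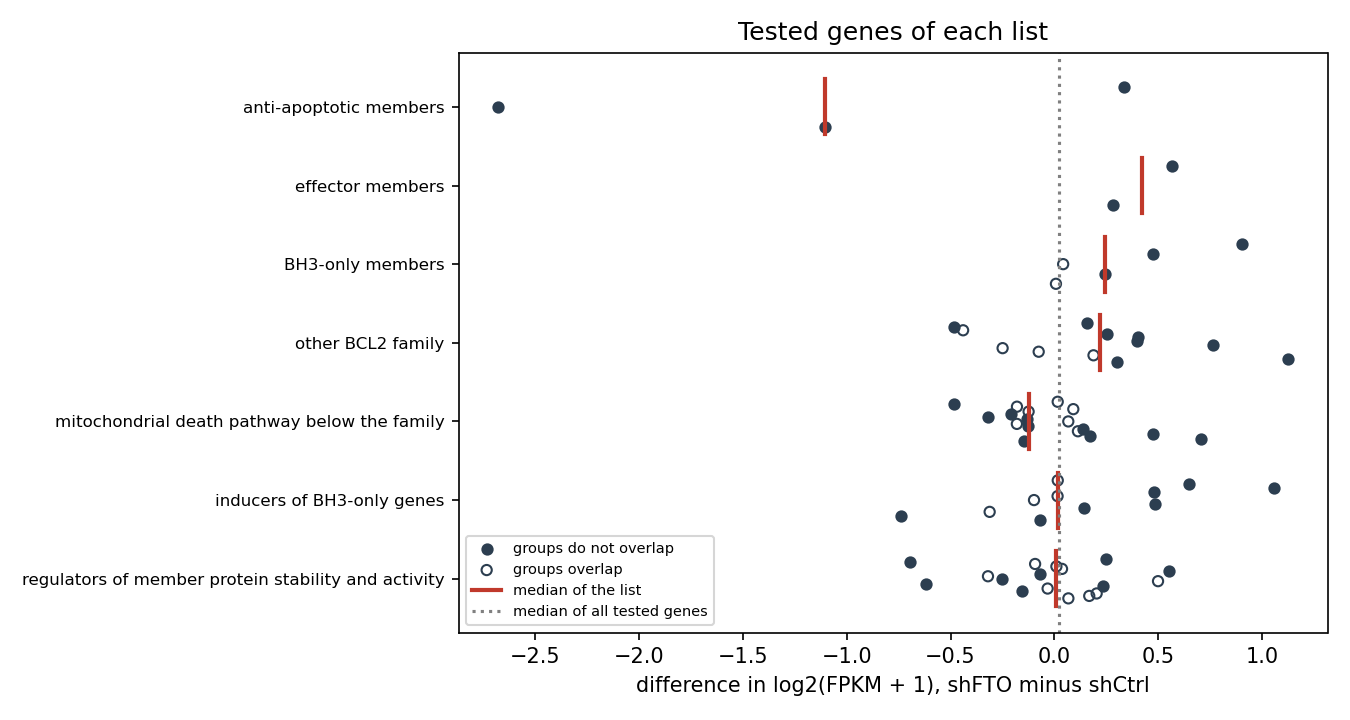
Difference in log2(FPKM + 1), shFTO minus shCtrl, of each tested gene in the 3 roles and in 4 surrounding lists. Filled points are genes whose groups do not overlap, open points overlap, red lines are list medians and the dotted line is the median of all tested genes (0.02). The 2 points farthest to the left are BCL2L2 and BCL2L1.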

How the data were processed

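Total RNA of the shFTO and shCtrl 143B cells was enriched for mRNA on oligo(dT) beads and sequenced on an Illumina instrument after second-strand synthesis with dUTP, per the labels' protocols. Software and build (STAR 2.5.2b, StringTie, HISAT2 2.0.5, cutadapt, hg19) are listed in the submitters' processing notes without roles. The authors deposited FPKM for each library, per the file headers. Group columns deposited by the authors equalled means of log2(FPKM + 1) in all 11972 rows. The deposited log2 fold change, fold ratio, p-value and q-value columns are the authors' own test. Low FPKM values, multiplied by the length of each gene's longest transcript (GENCODE release 29), showed no steps of whole reads. The lengths behind the deposited FPKM are not known, so this check could miss such steps. Depth is therefore unknown and no counting interval was computed.

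Groups came from the titles. limma 3.58.1 (R 4.3.3) was fitted without a block on log2(FPKM + 1), its variance following a trend on the mean, over the 10873 genes that reached 1 FPKM in 2 or more libraries, with Benjamini-Hochberg adjustment across that whole set. Simulated data were used as a test of the fit. The members and gene lists were chosen with earlier results of these data known. Named genes were all members, FTO, genes overlapping a member, the 3 genes with the profile nearest to that of the member with the largest difference, and from each list the 2 higher and 2 lower tested genes with the smallest p-values. Some genes that this rule names, and 1 list, are not reported here. Gene coordinates are those of the authors' table (hg19). Promoters are RefSeq's and transcripts GENCODE's (GRCh38). Alternatives covered pseudocount, filter, scaling, variance model, threshold, replicate block, each library left out, and BCL2L2 summed with its read-through gene.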

Additional observations from a re-analysis of the deposited data

How the results depend on the processing

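The number of genes past the threshold was 3 in the main analysis and 0 of the 10 members were among them. It was 0 with a pseudocount of 0.1 (1167 genes at unadjusted p under 0.05) and 2 with quantile normalization. It was 1 with no filter on low values, with median-ratio scaling or without the mean-variance trend. Another threshold was an unadjusted limma p under 0.05 with a difference of at least 1 in log2(FPKM + 1) in either direction. There 116 genes passed, 2 of them members (BCL2L1 and BCL2L2). When 1 library was left out the number of genes ran from 0 to 429 and the number of members from 0 to 3. Without shFTO replicate 1 these members were BCL2L1, BCL2L2 and PMAIP1, without shFTO replicate 2 BCL2L1 and BCL2L2, and without either shCtrl library there were 0 genes (limma, 509 and 584 at unadjusted p under 0.05). The 0 in the last 2 fits rests on the shFTO pair for its spread. Likewise, the counts without a shFTO library rest on the shCtrl pair alone.

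Replicate numbers do not pair the libraries by any label, and same-numbered libraries deviated from their group means with a correlation of -0.192. With the replicate block 15 genes and 1 member passed, BCL2L2 (limma adjusted p = 0.0147). A crossed replicate block, chosen after seeing the data, gave 0 genes and 0 members (1430 genes at unadjusted p under 0.05).

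Of 118 member differences under alternatives, 105 kept their direction and side of the threshold, 6 newly passed and 7 changed sign. Both members that changed sign had a main difference near 0. BID was -0.037 when quantile-normalized, -0.025 with median-ratio scaling, and between -0.090 and 0.105 with 1 library left out (-0.0387 without shFTO replicate 2 and -0.090 without shCtrl replicate 1). BCL2L11 was -0.028 when quantile-normalized and between -0.38 and 0.47 with 1 library left out (-0.31 without shFTO replicate 1 and -0.38 without shCtrl replicate 1). Leaving out 1 library moved the difference in summed FPKM between -21.9 and 22.6 for the anti-apoptotic, 5.36 and 12.5 for the effector and 6.98 and 36.6 for the BH3-only members. The median of all tested genes was 0.02 and moved to -0.01 with quantile normalization or median-ratio scaling. With a mean of at least 5 FPKM, BCL2L11 and BBC3 were not tested. Because depth is unknown, the precision of low values such as those of BBC3 and of BCL2L2 in shFTO cannot be given.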
